A study of Homo sapiens with 12 samples.

Results

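The 9 genes described here belong to the stress response run by the transcription factor ATF4: the regulators ATF4, ATF3, DDIT3 (the factor CHOP), CEBPB and TRIB3, and the effectors ASNS, CHAC1, SESN2 and PCK2. Each was found by its symbol in the platform annotation, and each had exactly 1 probe set paired with that symbol alone, so 9 of 14232 genes and 9 of 22011 probe sets are described. Expression had been measured on 12 arrays of LN229, an established human glioblastoma line, in 4 groups of 3: cells at 1% O2 with siRNA against HIF-1A (gene HIF1A), cells at 1% O2 with siRNA against HIF-2A (gene EPAS1), cells at 1% O2 with non-targeting siRNA (here control siRNA), and cells at 20% O2 with control siRNA. All cells had been transfected 24 h after seeding, moved to their oxygen level 48 h later and harvested after 16 h there, so all groups share the transfection and no untransfected cells were included. Nothing in the labels says that the 3 arrays of a group came from separate cultures, and a p-value therefore covers array-to-array spread alone, which may be technical.

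ATF4 is the main transcription factor of the integrated stress response, in which kinases that sense amino acid shortage, misfolded protein, heme shortage or double-stranded RNA phosphorylate the initiation factor eIF2alpha. General translation then falls while translation of ATF4 mRNA rises, because upstream reading frames in that mRNA normally hold ribosomes away from the coding sequence. ATF4 protein pairs with C/EBP factors at C/EBP-ATF response elements of target genes, and severe oxygen shortage is one of the stresses known to engage it. The arrays read transcripts only, and neither ATF4 protein nor eIF2alpha phosphorylation was measured on them.

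The promoters of those 3 of the 9 genes that hold the core of that element near a start site are shown first, since this core is what ATF4 and its partners are known to bind. They come from RefSeq windows of GRCh38.p14 that run from 250 bases before to 50 after a start, with 16 windows matched to the 9 genes, and the 250 bases before the start are printed 5′ to 3′ on the gene's strand. Capitals mark a match to TGATGNAA, searched on both strands. The ASNS window is chr7:97872409-97872658 on the minus strand, with its match at positions -68 to -61. The CHAC1 window is chr15:40953221-40953470 on the plus strand, with its match at -209 to -202, read on the opposite strand. The ATF3 window is chr1:212565157-212565406 on the plus strand, the first of the 2 starts listed for that gene, with its match at -191 to -184. The second ATF3 window, chr1:212614768-212615067, held no TGATGNAA match, and sequence outside the listed windows was not searched.
ASNS: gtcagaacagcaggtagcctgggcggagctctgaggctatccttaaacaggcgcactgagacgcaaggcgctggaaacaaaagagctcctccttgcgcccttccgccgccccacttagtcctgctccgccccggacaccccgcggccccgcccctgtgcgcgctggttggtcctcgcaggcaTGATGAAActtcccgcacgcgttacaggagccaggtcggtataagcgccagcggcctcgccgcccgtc
CHAC1: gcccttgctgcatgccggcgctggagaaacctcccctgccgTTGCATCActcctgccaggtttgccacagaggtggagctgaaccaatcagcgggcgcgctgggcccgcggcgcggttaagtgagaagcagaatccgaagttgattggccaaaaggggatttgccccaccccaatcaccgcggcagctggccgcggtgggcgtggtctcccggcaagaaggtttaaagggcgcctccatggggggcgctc
ATF3: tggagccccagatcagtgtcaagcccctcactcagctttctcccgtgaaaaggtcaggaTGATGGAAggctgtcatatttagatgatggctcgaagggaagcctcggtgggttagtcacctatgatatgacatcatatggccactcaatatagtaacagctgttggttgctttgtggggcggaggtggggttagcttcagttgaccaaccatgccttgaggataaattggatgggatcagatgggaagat
A TGATGNAA match was present in 3.62% of 35116 windows of the same length and in 3 of the 16 windows of these genes. The full cyclic AMP response element TGACGTCA was found in 0 of the 9 genes and in 1.85% of all windows. ACGTG or GCGTG, the cores of hypoxia response elements, occurred in 12 of the 16 windows (75%), which belong to 6 of the 9 genes and some of which overlap, and in 48.4% of all windows. TRIB3 held 6 GCGTG matches in each of its 3 overlapping windows. In ATF4, 2 of the ACGTG matches overlap as the palindrome CACGTG, 1 on each strand. SESN2, PCK2 and ATF3 held no ACGTG or GCGTG in these windows. A match is a description of the letters and not a bound site.

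Array medians lay between 6.49 and 6.82 on the log2 scale and upper quartiles between 7.88 and 8.57, the lowest of both on HIF1A siRNA replicate 3. HIF1A was lower by 3.13 ± 0.27 (log2, SE, n = 3 per group) with its siRNA than with control siRNA (limma, adjusted p = 1.6e-04), and EPAS1 fell by 2.59 ± 0.15 with HIF2A siRNA (adjusted p = 3.13e-05). EPAS1 also fell by 1.48 ± 0.15 with HIF1A siRNA (adjusted p = 3.13e-04), so both HIF transcripts were lower in that group. Of 7 markers listed for astrocytes and glioma, VIM averaged 12.2 over all arrays, S100B 10.6, NES 10.0, CD44 9.75, OLIG2 6.82, GFAP 6.37 and AQP4 3.21. Among markers of other cell types, the neuronal SYT1 and SNAP25 averaged 8.39 and 6.78, the microglial CD68, AIF1 and PTPRC 8.49, 3.99 and 2.45, and the epithelial KRT8, KRT18, CDH1 and EPCAM 11.3, 9.55, 4.33 and 2.33. The oligodendrocyte markers MAG, MBP and MOG averaged 6.38, 5.43 and 4.83, and the endothelial VWF, CDH5, KDR and PECAM1 5.62, 5.34, 4.27 and 3.81. Of these markers S100B was called by limma in hypoxia with control siRNA (-0.63 over normoxia, adjusted p = 0.00909) and with HIF1A siRNA (0.85 over control siRNA, 0.0029), and NES in hypoxia (-0.41, 0.0112). S100B was also called with HIF1A siRNA over HIF2A siRNA (0.65, 0.0137). Against normoxia GFAP (0.34, 0.03), CD68 (0.41, 0.0199) and CD44 (-0.42, 0.0284) were called with HIF1A siRNA, and NES (-0.40, 0.0138) with HIF2A siRNA. Their part in the results was not tested. Replicate 3 had the lowest of the 3 values for 7 of the 9 ATF4-linked genes with HIF1A siRNA and for 8 of 9 in hypoxia with control siRNA. This order was not counted over all genes, so whether it is particular to these 9 cannot be told. These are bulk values, in which fewer cells carrying a transcript and less of it per cell cannot be told apart.

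Oxygen shortage with control siRNA raised 4 of the 9 genes, PCK2, TRIB3, ASNS and CHAC1, by 1.85-fold to 2.05-fold. The transcripts of the transcription factors ATF4, ATF3 and CEBPB showed log2 changes between -0.10 and 0.05. That of DDIT3, also a transcription factor, was at 0.48 and was not called (limma, adjusted p = 0.0702). No member was called lower. Over all genes, limma called 12.3% in this comparison, 3.37% higher and 8.95% lower, at an adjusted p under 0.05. The 9 genes were chosen with earlier results of these data known, so counts set beside such shares are a description and test nothing. The 3 hypoxic values lay above all 3 normoxic ones for 6 of the 9 genes, a pattern shown by 12.1% of all genes, and the median log2 change of the 9 was 0.48, against -0.03 over all genes.

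ASNS makes asparagine from aspartate and glutamine and is the textbook ATF4 target. Its log2 values were 11.31, 11.20 and 11.06 with HIF1A siRNA, 11.48, 11.51 and 11.52 with HIF2A siRNA, 11.34, 11.19 and 11.10 in control siRNA cells at 1% O2, and 10.39, 10.25 and 10.30 in normoxia. The 9 hypoxic arrays were all above the 3 normoxic ones, and the HIF2A siRNA arrays were the highest of all. In hypoxia with control siRNA ASNS rose 1.86-fold over normoxia, a log2 change of 0.89 ± 0.10 (SE, n = 3 per group, limma, adjusted p = 3.31e-04).

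TRIB3 is a pseudokinase that ATF4 and DDIT3 are known to induce and that restrains ATF4 in turn. It measured 8.61, 8.57 and 8.45 with HIF1A siRNA, 9.17, 8.93 and 8.90 with HIF2A siRNA, 8.90, 8.90 and 8.69 in control siRNA cells at 1% O2, and 7.95, 7.89 and 7.82 in normoxia. Every hypoxic array lay above every normoxic one, and the HIF1A siRNA arrays lay below all the other hypoxic arrays. The rise in hypoxia with control siRNA was 1.92-fold, a log2 change of 0.94 ± 0.11 (adjusted p = 3.5e-04).

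PCK2, the mitochondrial phosphoenolpyruvate carboxykinase, turns oxaloacetate into phosphoenolpyruvate. It measured 8.22, 7.87 and 7.73 with HIF1A siRNA, 8.33, 8.14 and 8.10 with HIF2A siRNA, 8.37, 8.34 and 8.10 in control siRNA cells at 1% O2, and 7.23, 7.17 and 7.30 in normoxia. The groups at 1% O2 overlapped one another and stood clear of normoxia. Its rise in hypoxia with control siRNA was 2.05-fold, a log2 change of 1.04 ± 0.14 (adjusted p = 9.35e-04).

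CHAC1 degrades glutathione and is induced late in the ATF4 and DDIT3 branch. It measured 7.81, 7.56 and 6.78 with HIF1A siRNA, 7.66, 7.31 and 7.38 with HIF2A siRNA, 7.12, 6.98 and 6.96 in control siRNA cells at 1% O2, and 5.97, 6.11 and 6.33 in normoxia. It had the widest spread of the 9 genes, an SD of 0.54 with HIF1A siRNA, where replicate 3 fell below the control siRNA arrays and the other 2 above them. The hypoxic rise with control siRNA was 1.85-fold, a log2 change of 0.88 ± 0.22 (adjusted p = 0.0251). That call was lost when any 1 array of either group was left out, with adjusted p from 0.0507 (without normoxia replicate 3) to 0.104 (without normoxia replicate 1). The values in between were 0.0699, 0.0741 and 0.0612 without hypoxia control replicates 1, 2 and 3, and 0.0724 without normoxia replicate 2.

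DDIT3, a pro-apoptotic C/EBP-family factor downstream of ATF4, measured 9.08, 9.08 and 8.57 with HIF1A siRNA, 9.64, 9.34 and 9.68 with HIF2A siRNA, 9.43, 9.13 and 9.12 in control siRNA cells at 1% O2, and 8.70, 8.72 and 8.81 in normoxia. Its hypoxic values with control siRNA were all above normoxia, by 0.48 ± 0.16 (log2, adjusted p = 0.0702), just outside the threshold. It was called after quantile normalization (0.64, adjusted p = 7.5e-04), after cyclic loess (0.65, 5.1e-04), after each array was centred on its median (0.54, 0.0117), when HIF1A siRNA replicate 3 was left out of the shared variance (0.0205) and with only the 2 groups fitted (0.0291).

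SESN2, a sestrin that restrains the growth kinase complex mTORC1, measured 7.87, 7.54 and 7.28 with HIF1A siRNA, 7.79, 7.63 and 7.72 with HIF2A siRNA, 7.51, 7.47 and 7.48 in control siRNA cells at 1% O2, and 7.12, 7.13 and 7.26 in normoxia. All 9 hypoxic arrays were above normoxia, but the log2 difference with control siRNA was 0.31 ± 0.13 (adjusted p = 0.166). The same 3 scalings gave 0.40 (0.0221), 0.42 (0.00995) and 0.37 (0.0421), and a fit of the 2 groups alone gave an adjusted p of 0.04, all of which pass.

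ATF4 itself measured 7.09, 7.22 and 7.12 with HIF1A siRNA, 7.45, 7.18 and 7.16 with HIF2A siRNA, 7.15, 7.19 and 7.06 in control siRNA cells at 1% O2, and 7.05, 7.26 and 6.93 in normoxia. All 4 groups overlapped. The hypoxic difference was 0.05 ± 0.11, with a 95% interval of -0.20 to 0.31 (adjusted p = 0.848).

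ATF3, a stress-induced repressor of the same bZIP class (factors with a basic region and leucine zipper), measured 6.16, 5.94 and 6.01 with HIF1A siRNA, 5.67, 5.93 and 5.94 with HIF2A siRNA, 5.81, 5.87 and 5.57 in control siRNA cells at 1% O2, and 5.72, 5.66 and 5.80 in normoxia. The HIF1A siRNA arrays were the 3 highest of the 12. In hypoxia with control siRNA the difference was 0.02 ± 0.12, with a 95% interval of -0.23 to 0.28 (adjusted p = 0.938).

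CEBPB, a partner of ATF4 on its response elements, measured 8.44, 8.72 and 8.38 with HIF1A siRNA, 8.68, 8.51 and 8.61 with HIF2A siRNA, 8.74, 8.61 and 8.48 in control siRNA cells at 1% O2, and 8.70, 8.70 and 8.73 in normoxia. Hypoxia and normoxia overlapped, with a difference of -0.10 ± 0.11 (95% interval -0.35 to 0.15, adjusted p = 0.685) that turned to 0.06 after quantile normalization and 0.07 after cyclic loess.

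**Figure D1:**
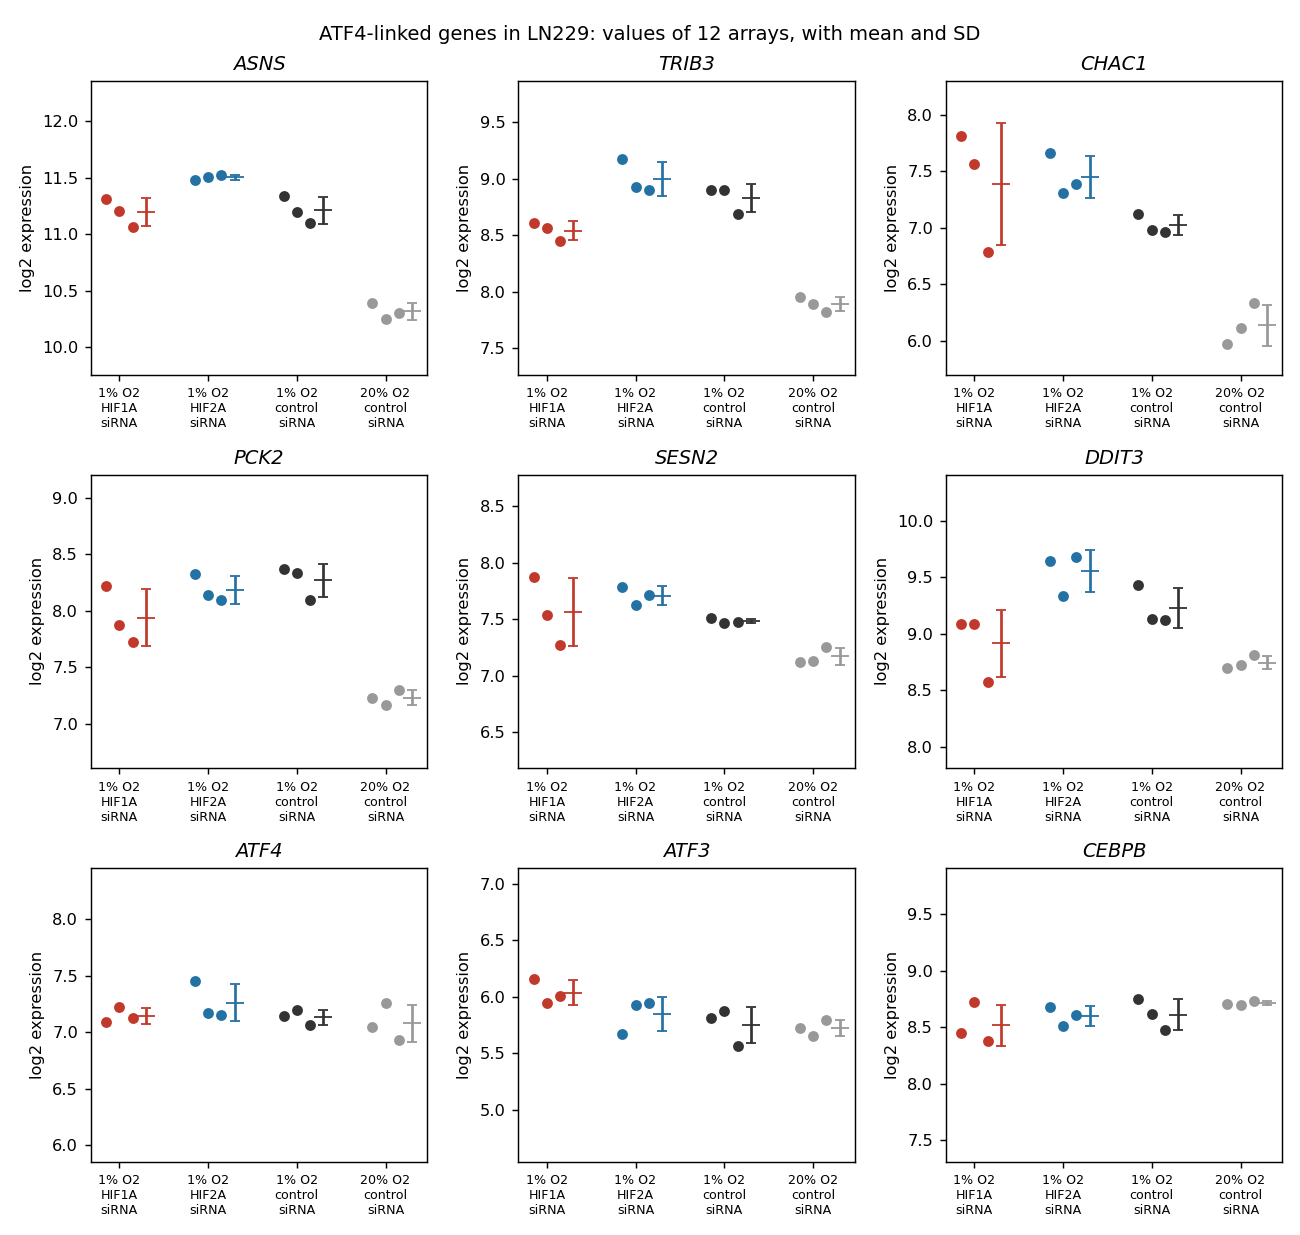
Log2 expression of the 9 genes (vertical axes, each spanning the same width) on the 12 arrays, by group from left to right: 1% O2 with HIF1A siRNA, 1% O2 with HIF2A siRNA, 1% O2 with control siRNA and 20% O2 with control siRNA. Points are arrays, replicates 1 to 3 from left to right, and bars show the mean and SD (n = 3). ASNS, TRIB3, CHAC1, PCK2 and SESN2 were above normoxia on all 9 hypoxic arrays, whereas the 4 groups of ATF4 overlapped.

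In order of group mean, HIF2A siRNA was highest for ASNS, TRIB3, CHAC1, SESN2, DDIT3 and ATF4, hypoxia with control siRNA for PCK2, HIF1A siRNA for ATF3 and normoxia for CEBPB. For ASNS the means were 11.19 ± 0.12 with HIF1A siRNA, 11.50 ± 0.02 with HIF2A siRNA, 11.21 ± 0.12 with control siRNA in hypoxia and 10.31 ± 0.07 in normoxia (SD, n = 3 each). HIF1A siRNA and control siRNA, next to each other in this order, differed by less than their SDs. For TRIB3 the means were 8.54 ± 0.08 with HIF1A siRNA, 9.0 ± 0.15 with HIF2A siRNA, 8.83 ± 0.12 with control siRNA in hypoxia and 7.89 ± 0.06 in normoxia. The HIF2A siRNA and control siRNA arrays overlapped at 8.90.

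With HIF1A siRNA in hypoxia none of the 9 genes was called different from hypoxia with control siRNA (limma), and ASNS was among those nearest to 0, whereas 11.1% of all genes were, 0.857% higher and 10.2% lower. At an unadjusted p under 0.05 there were 3 of the 9, against 30.6% of all genes. The 3 arrays lay above the control siRNA arrays for 1 of the 9 (11% of all genes) and below them for 2 (19.8% of all genes). ASNS differed by -0.02 ± 0.10 (log2, 95% interval -0.23 to 0.20, adjusted p = 0.918), and the difference turned positive after quantile normalization (0.09), cyclic loess (0.12) and median centring (0.11), and without HIF1A siRNA replicate 3 (0.05). ATF4 differed by 0.01 ± 0.11, with a 95% interval of -0.24 to 0.26 (adjusted p = 0.953). SESN2 differed by 0.08 ± 0.13, with a 95% interval of -0.22 to 0.37 (adjusted p = 0.71).

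TRIB3 was below hypoxia with control siRNA on all 3 HIF1A siRNA arrays, by -0.29 ± 0.11 (log2, adjusted p = 0.0978), and PCK2 differed by -0.33 ± 0.14 (adjusted p = 0.129). For TRIB3 the difference was -0.17 after median centring, -0.03 after cyclic loess and -0.00 after quantile normalization. For PCK2 it was -0.21, -0.11 and -0.06 after the same scalings, and it passed without HIF1A siRNA replicate 1 (-0.47, adjusted p = 0.0353) and was -0.22 without replicate 3 (0.355). DDIT3 was also below on all 3 arrays, by -0.31 ± 0.16 (adjusted p = 0.2), by -0.14 without HIF1A siRNA replicate 3, and by -0.03, -0.06 and -0.19 after quantile normalization, cyclic loess and median centring.

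CHAC1 and ATF3 leaned the other way. CHAC1 differed by 0.36 ± 0.22 (adjusted p = 0.28), and without HIF1A siRNA replicate 3 it was called higher, at 0.67 (adjusted p = 0.0353), whereas without HIF1A siRNA replicate 1 it was at 0.15 (0.641). ATF3 was above hypoxia with control siRNA on all 3 arrays, by 0.29 ± 0.12 (adjusted p = 0.123). CEBPB differed by -0.10 ± 0.11 (adjusted p = 0.57), and its sign turned after quantile normalization (0.19), cyclic loess (0.17) and median centring (0.03). The median change over all genes with HIF1A siRNA was -0.05 in the deposited values, 0.07 after quantile normalization and 0.07 after median centring. Relative to the deposited median the changes were 0.03 for ASNS, -0.24 for TRIB3, -0.28 for PCK2, -0.26 for DDIT3, 0.42 for CHAC1 and 0.34 for ATF3.

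With HIF2A siRNA none of the 9 genes was called either (limma, every adjusted p = 1), where 1 of all 14232 genes was, EPAS1 itself, or 0.00703%. At an unadjusted p under 0.05 there was 1 of the 9, ASNS, and 502 of all genes. ASNS was above hypoxia with control siRNA on all 3 arrays, by 0.29 ± 0.10 (log2, 95% interval 0.08 to 0.51, unadjusted p = 0.0128). CHAC1 and SESN2 were above on all 3 arrays too, by 0.43 ± 0.22 and 0.23 ± 0.13. DDIT3 differed by 0.33 ± 0.16, TRIB3 by 0.17 ± 0.11, ATF4 by 0.13 ± 0.11 and ATF3 by 0.10 ± 0.12. PCK2 and CEBPB were at -0.08 ± 0.14 and -0.01 ± 0.11. All 3 arrays were above for 3 of the 9 genes, a pattern shown by 4.46% of all genes, and the median of the 9 was 0.17 where that of all genes was -0.01. Both siRNA comparisons use the same 3 control siRNA arrays at 1% O2.

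**Figure D2:**
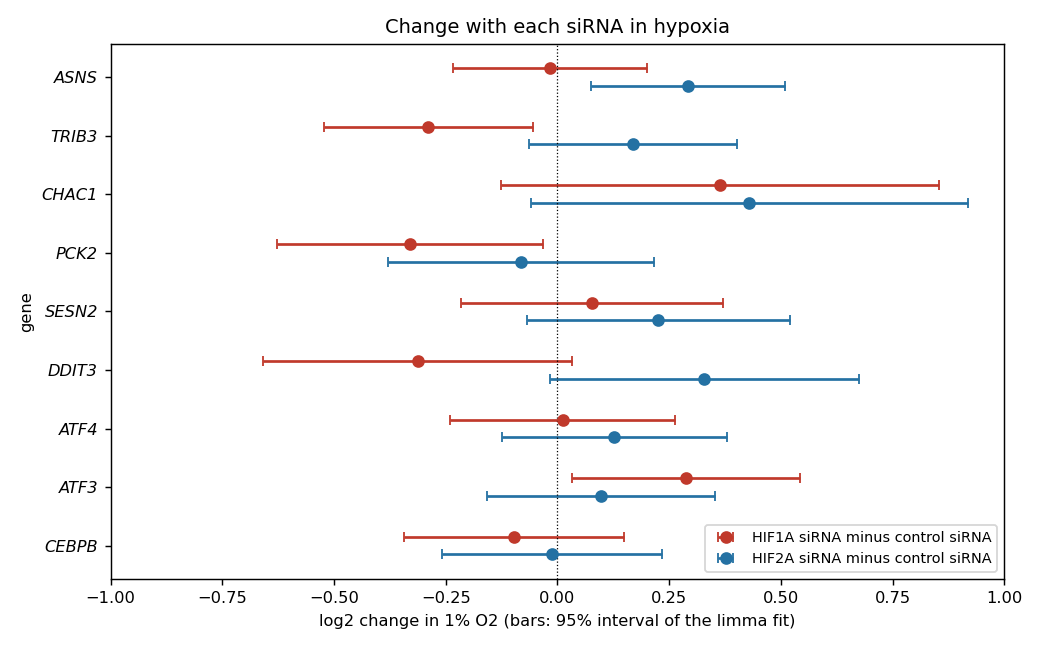
Log2 change of each of the 9 genes at 1% O2 with HIF1A siRNA (red, upper of each pair) and with HIF2A siRNA (blue, lower of each pair), each minus control siRNA (horizontal axis). Points are limma estimates and bars their 95% intervals, before adjustment for the number of genes. The ASNS interval runs from -0.23 to 0.20 with HIF1A siRNA and from 0.08 to 0.51 with HIF2A siRNA, and none of the 9 genes was called in either comparison.

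Set directly against each other, the siRNA groups differed in DDIT3 and TRIB3, both lower with HIF1A siRNA than with HIF2A siRNA. DDIT3 had a log2 difference of -0.64 ± 0.16 (limma, adjusted p = 0.0316) and TRIB3 one of -0.46 ± 0.11 (adjusted p = 0.0263), and in both genes the 3 HIF1A siRNA arrays were below all 3 HIF2A siRNA arrays. Over all genes 9.43% were called, 0.899% higher and 8.53% lower. The HIF1A siRNA arrays were all below for 3 of the 9 genes, a pattern of 18.7% of all genes, and all above for 1, ATF3, a pattern of 11.8%. Neither call held without HIF1A siRNA replicate 3 (DDIT3 -0.47, adjusted p = 0.0945, and TRIB3 -0.41, 0.0882), without HIF2A siRNA replicate 1 (0.119 and 0.109) or without HIF2A siRNA replicate 3 (0.134 and 0.0639). With only the 2 groups fitted both calls ended (0.144 and 0.139). DDIT3 also lost its call without normoxia replicate 2 (0.0512) or 3 (0.0516), and was called at -0.37, -0.38 and -0.51 after quantile normalization, cyclic loess and median centring, while TRIB3 lost its call after quantile normalization (-0.17, 0.289), cyclic loess (-0.19, 0.24) and median centring (-0.32, 0.0548). ASNS was below on all 3 arrays as well, by -0.31 ± 0.10 (adjusted p = 0.0692), and passed without HIF1A siRNA replicate 1 (0.0431). PCK2 differed by -0.25 ± 0.14 (0.22), CHAC1 by -0.07 ± 0.22 (0.85), SESN2 by -0.15 ± 0.13 (0.445) and ATF3 by 0.19 ± 0.12 (0.266).

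Against normoxia, 5 of the 9 genes were higher with HIF1A siRNA in hypoxia and 0 were lower (limma), where 35% of all genes were called, 4.67% higher and 30.4% lower. The genes were CHAC1 at 1.25 ± 0.22 (log2, adjusted p = 0.00428), ASNS at 0.88 ± 0.10 (0.00182), PCK2 at 0.71 ± 0.14 (0.00524), TRIB3 at 0.65 ± 0.11 (0.00336) and SESN2 at 0.39 ± 0.13 (0.0424). Without HIF1A siRNA replicate 3 the count was 5 again, with ASNS at 0.94 and CHAC1 at 1.55. SESN2 lost its call when any of the other 11 arrays was left out (adjusted p up to 0.121, without normoxia replicate 1) and with only the 2 groups fitted (0.117). DDIT3 was at 0.17 ± 0.16 (0.408), but it was called after quantile normalization (0.60, 0.00269), cyclic loess (0.60, 0.0021) and median centring (0.35, 0.0389). ATF3 was at 0.31 ± 0.12 (0.0569) and was called after quantile normalization (0.36, 0.0357), median centring (0.49, 0.0145) and a filter on low values (0.0478). The count of 5 was 7, 6 and 7 after the 3 scalings, where 2241, 1795 and 2882 of all genes were called higher, against 664 as deposited. The median over all genes was -0.12 in this comparison and 0.08 after quantile normalization. Relative to the deposited median ASNS was at 1.00 and CHAC1 at 1.37.

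With HIF2A siRNA in hypoxia, 6 of the 9 genes were higher than in normoxia and 0 were lower, where 9.64% of all genes were called, 2.85% higher and 6.79% lower. CHAC1 was at 1.31 ± 0.22 (log2, limma, adjusted p = 0.00458), ASNS at 1.19 ± 0.10 (4.74e-05), TRIB3 at 1.11 ± 0.11 (1.25e-04) and PCK2 at 0.96 ± 0.14 (0.00177). DDIT3 was called as well, at 0.81 ± 0.16 (0.00904), and SESN2 at 0.54 ± 0.13 (0.0288). The SESN2 call was lost without any 1 of the HIF2A siRNA or normoxia arrays (adjusted p 0.062 to 0.107). ATF4 was at 0.18 ± 0.11 (0.403). All comparisons with normoxia share the same 3 normoxic arrays.

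To express how much of the hypoxic rise each siRNA left, its log2 difference from normoxia was divided by that of control siRNA. It is given for the 4 genes called higher with control siRNA, as a description with Fieller 95% intervals, because both changes share the normoxic arrays. ASNS kept 98.1% of its rise with HIF1A siRNA (76.2 to 126) and 133% with HIF2A siRNA (107 to 168). TRIB3 kept 69.4% with HIF1A siRNA (47.9 to 93.3) and 118% with HIF2A siRNA (93.9 to 151). PCK2 kept 68.2% with HIF1A siRNA (43.2 to 96.4) and 92.1% with HIF2A siRNA (66.8 to 125). These intervals are not adjusted for the number of genes. In the deposited values the TRIB3 and PCK2 intervals with HIF1A siRNA lay below 100%. Neither gene was called with HIF1A siRNA over control siRNA, however (limma, adjusted p = 0.0978 and 0.129). The ASNS interval with HIF2A siRNA lay above 100%, and ASNS was not called with HIF2A siRNA over control siRNA either. CHAC1 kept 141% with HIF1A siRNA (88.7 to 274) and 149% with HIF2A siRNA (94.6 to 290), the widest intervals of the 4.

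Over all 480 genes called higher in hypoxia, these 4 among them, the median share was 13.1% with HIF1A siRNA (quartiles -17.5 and 39.0) and 90.1% with HIF2A siRNA (quartiles 72.1 and 104). Within those 480 genes the HIF1A siRNA shares of ASNS, TRIB3, CHAC1 and PCK2 stood at percentiles 96.5, 90.4, 99.6 and 90.2. Their HIF2A siRNA shares stood at percentiles 95, 89, 97.9 and 53.8. The median HIF1A siRNA share moved to 43.0% after quantile normalization, 42.1% after cyclic loess and 32.5% after median centring, and to 21.2% without HIF1A siRNA replicate 3. After the same 3 scalings the HIF1A siRNA share of TRIB3 was 99.9%, 97.6% and 83.3%, that of PCK2 94.3%, 91.0% and 81.0%, that of ASNS 109%, 112% and 111%, and that of CHAC1 163%, 149% and 152%. Without HIF1A siRNA replicate 3 the shares with HIF1A siRNA were 105% for ASNS, 74.2% for TRIB3, 175% for CHAC1 and 78.5% for PCK2. In the HIF1A siRNA group EPAS1 was lower too, as given above, and its part in these shares was not tested.

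**Figure D3:**
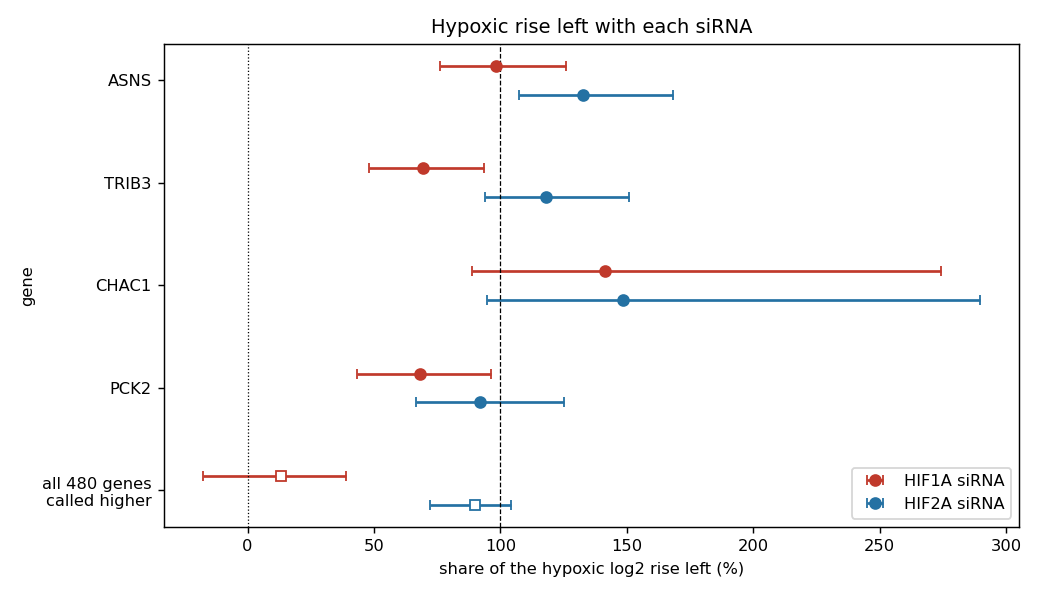
Share of the hypoxic log2 rise left at 1% O2 with HIF1A siRNA (red, upper) and HIF2A siRNA (blue, lower), in percent, for the 4 genes called higher in hypoxia with control siRNA. Filled points carry Fieller 95% intervals, not adjusted for the number of genes, and the open squares show the median and quartiles over all 480 genes called higher. With HIF1A siRNA the 4 genes lie between 68.2% and 141%, and the median of the 480 genes lies at 13.1%.

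To see which transcripts followed ASNS most closely, the 12 values of every gene were centred on their mean and compared with those of ASNS by the root mean square difference. The nearest 5 genes were TRIB3 (0.133 on the log2 scale), COL1A1 (0.137), PCK2 (0.175), CBS (0.179) and PHGDH (0.187). The others of the 9 ranked 37 (CHAC1), 51 (SESN2), 59 (DDIT3), 1290 (ATF3), 1384 (ATF4) and 6994 (CEBPB) among all genes. COL1A1, a collagen chain, was higher in hypoxia by 0.77 ± 0.09 (limma, adjusted p = 5.26e-04). PHGDH, the first enzyme of serine synthesis, was higher by 0.50 ± 0.12 (adjusted p = 0.0192), a call that ended when control siRNA replicate 1 or 2 at 1% O2 was left out (0.0528 and 0.068) and when normoxia replicate 1, 2 or 3 was (0.0774, 0.0606 and 0.058).

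Around these 9 genes, 8 further lists of the pathway held 102 genes with a probe set of their own. The lists, too, were chosen with earlier results of these data known, so their counts are a description and test nothing. Of the 102 genes 20 were called higher and 9 lower in hypoxia with control siRNA (limma), where 3.37% of all genes were higher and 8.95% lower. With HIF1A siRNA against control siRNA 0 were called higher and 17 lower, where 0.857% and 10.2% of all genes were. With HIF2A siRNA 0 were called, and 4 of the 102 had an unadjusted p under 0.05, as did 3.53% of all genes. The list counts given below after a scaling are to be read beside those over all genes. In hypoxia 946, 1059 and 767 of all genes were higher after quantile normalization, cyclic loess and median centring, against 480 as deposited. Lower were 1200, 1289 and 1438, against 1274. With HIF1A siRNA over control siRNA 726, 545 and 509 were higher, against 122, and 1124, 1183 and 1272 lower, against 1451.

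The list of kinases and phosphatase subunits that act on eIF2alpha, upstream of ATF4, also held EIF2S1, which is eIF2alpha itself, and IMPACT. Of its 8 measured genes 0 were called in hypoxia (limma), and 2 had an unadjusted p under 0.05, as did 25.6% of all genes. Their median was -0.28, and it moved to -0.16 after quantile normalization and -0.15 after cyclic loess. With HIF1A siRNA against control siRNA 0 of 8 were called (limma), and 1 was lower after median centring. An unadjusted p under 0.05 was found there for 5 of the 8 and for 30.6% of all genes. In hypoxia 2 were lower with only the 2 groups fitted, and 1 without HIF1A siRNA replicate 1 or 3. With HIF1A siRNA 1 was lower without its replicate 1 and 2 without its replicate 2. Against normoxia, however, 7 of the 8 were called lower with HIF1A siRNA, where 30.4% of all genes were. The median of the 8 was -0.64 there, and that of all genes -0.12. Against HIF2A siRNA 2 of the 8 were called lower with HIF1A siRNA, where 8.53% of all genes were. Counts of this list after the 3 scalings are not given for these 2 comparisons.

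Of 20 bZIP partners and relatives of ATF4, 1 was called higher and 1 lower in hypoxia, with a median of 0.01, and 7 were higher after each of the 3 scalings and 3 without HIF1A siRNA replicate 3. NFE2L1, a factor that controls proteasome genes, was higher by 0.68 ± 0.10 (adjusted p = 0.00165) and BATF3 lower, at -0.53 ± 0.14 (adjusted p = 0.0325). The BATF3 call ended when control siRNA replicate 1 or 2 at 1% O2 was left out (0.066 and 0.135), when normoxia replicate 1, 2 or 3 was (0.104, 0.111 and 0.0604), and after quantile normalization (0.11) and cyclic loess (0.0813). With HIF1A siRNA NFE2L1 was at -0.71 against control siRNA (adjusted p = 0.00207, and 0.0643 with only the 2 groups fitted) and kept -3.73% of its rise. ATF7 was at -0.43, a call (adjusted p = 0.0367) that ended in 9 of the 12 fits that left out 1 array (up to 0.161, without control siRNA replicate 1 at 1% O2, and 0.121 without HIF1A siRNA replicate 3) and after each of the 3 scalings (0.192, 0.163 and 0.0537).

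Enzymes of serine, proline and one-carbon metabolism, many of them known ATF4 targets, had 5 of 9 called higher and 1 lower in hypoxia, with a median of 0.47. Without control siRNA replicate 1 at 1% O2, and without normoxia replicate 2, 2 were higher and 1 lower. CBS, which joins serine to homocysteine, was higher by 1.34 ± 0.11 (limma, adjusted p = 5.06e-05) and PSAT1, the second step of serine synthesis, by 1.23 ± 0.19 (adjusted p = 0.00245). SHMT1, the cytosolic serine hydroxymethyltransferase, was lower, at -0.77 ± 0.16 (adjusted p = 0.00952). With HIF1A siRNA 1 of the 9 was lower than with control siRNA, ALDH18A1 of proline synthesis (-1.02, adjusted p = 0.00161, and 0.0528 with only the 2 groups fitted), and after each of the 3 scalings 1 was higher as well. The shares left with HIF1A siRNA over the 5 genes that rose ran from -116% (ALDH18A1) to 170% with a median of 86.3%.

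Among 11 amino acid transporters, 2 were called higher and 0 lower in hypoxia, with a median of 0.24. SLC1A4, a neutral amino acid carrier, was higher by 0.67 ± 0.13 (adjusted p = 0.00719). SLC1A5, which imports glutamine, was higher by 0.59 ± 0.12 (adjusted p = 0.0108), though the mean of its probe sets gave 0.35 (0.0739). With HIF1A siRNA they kept 42.3% and 75.6% of their rise, and 0 of the 11 were called against control siRNA (limma). An unadjusted p under 0.05 was found there for 3 of the 11 and for 30.6% of all genes. In hypoxia 6 of the 11 were higher after quantile normalization, 7 after cyclic loess and 3 after median centring. With HIF1A siRNA 3 were higher after quantile normalization and 2 after cyclic loess, and 1 was lower without its replicate 1 and 2 without its replicate 2.

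The 18 cytosolic aminoacyl-tRNA synthetases, which load amino acids on tRNAs, split into 3 higher, 3 lower and 12 not called in hypoxia, with a median of 0.02. RARS1 was at -0.82 ± 0.12 (adjusted p = 0.00178), CARS1 at 0.74 ± 0.16 (0.0122) and VARS1 at -0.69 ± 0.14 (0.00975). CARS1 lost its call without normoxia replicate 3 (0.053), where 1 of the 18 was higher and 2 were lower. After quantile normalization and after cyclic loess 8 of the 18 were higher and 3 lower, and after median centring 6 and 4. With HIF1A siRNA against control siRNA 0 of 18 were called (limma), and 3 had an unadjusted p under 0.05, as did 30.6% of all genes. CARS1 was below control siRNA on all 3 arrays, by -0.52 ± 0.16 (limma, adjusted p = 0.0586). The 3 synthetases that rose kept 30.2% (CARS1) to 98.6% (AARS1) of their rise with HIF1A siRNA, with a median of 56.2%. The interval of CARS1 ran from -23.3% to 72.4%.

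Of 14 other genes listed here as ATF4 targets, 7 rose and 2 fell in hypoxia, with a median of 0.38. Several of them, such as VEGFA and DDIT4, are known targets of HIF, and whether ATF4 acts on the 14 in these cells was not tested. VLDLR, a lipoprotein receptor, rose by 2.40 ± 0.16, VEGFA, an angiogenic factor, by 2.37 ± 0.13, and DDIT4, an inhibitor of mTORC1 signalling, by 2.05 ± 0.13 (limma, adjusted p = 8.67e-06, 2.06e-06 and 5.84e-06). With HIF1A siRNA 6 of the 14 were lower than with control siRNA, led by VLDLR (-1.62, adjusted p = 2.69e-04) and TXNIP (-1.31, 1.45e-04), and 3 were with only the 2 groups fitted. In the deposited values the 7 genes that rose kept 26.4% to 60.7% of their rise with HIF1A siRNA. For the 4 genes above the range was 68.2% to 141%, a difference that was not tested. The Fieller intervals of STC2 (33.9% to 81.1%) and VEGFA (50.6% to 71.1%) overlapped those of TRIB3 (47.9% to 93.3%) and PCK2 (43.2% to 96.4%). That of NUPR1 (-7.36% to 136%) overlapped all 4, and that of TXNIP (17.3% to 40.9%) lay below all 4. Shares of the 7 after the 3 scalings are not given, so a split cannot be read from these ranges.

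Among 4 relatives of SESN2 and TRIB3, 0 were higher and 1 lower in hypoxia, TRIB1 at -0.65 ± 0.15 (limma, adjusted p = 0.0183), a call that ended when control siRNA replicate 2 at 1% O2 was left out (0.0747) and when normoxia replicate 1, 2 or 3 was (0.0503, 0.0653 and 0.0628). With HIF1A siRNA SESN1 was at -0.65 against control siRNA (adjusted p = 0.015). Its call ended without control siRNA replicate 1 at 1% O2 (0.0763), without HIF1A siRNA replicate 3 (0.0544) and with only the 2 groups fitted (0.106). After each of the 3 scalings 1 of the 4 was higher and 1 lower, and without HIF1A siRNA replicate 1 or 2 there were 2 lower.

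Of 18 endoplasmic reticulum chaperones and genes of the other arms of the unfolded protein response, 2 were higher and 1 lower in hypoxia, with a median of 0.04, and 4, 5 and 3 were higher after quantile normalization, cyclic loess and median centring. ERO1A, an oxidase for protein disulfides, was higher by 1.56 ± 0.21 (limma, adjusted p = 9.88e-04). SEL1L, of the degradation machinery, was higher by 0.55 ± 0.13 (0.0203), and DNAJB9, a cochaperone, was at -0.39 ± 0.11 (0.0375). The SEL1L and DNAJB9 calls each ended in 5 of the 6 fits that left out 1 control siRNA array, with adjusted p up to 0.0794 for SEL1L (without normoxia replicate 3) and 0.139 for DNAJB9 (without normoxia replicate 1). The DNAJB9 call also ended after median centring (0.0701). With HIF1A siRNA 7 of 18 were lower than with control siRNA, among them ERO1A (-1.72, adjusted p = 9.28e-04) and DNAJC3 (-1.04, 0.0431), whose call ended in 10 of the 12 fits that left out 1 array (adjusted p up to 0.183, without control siRNA replicate 1 at 1% O2, and 0.152 without HIF1A siRNA replicate 3). The count of 7 was 6 after each of the 3 scalings, 1 with only the 2 groups fitted, 1 without control siRNA replicate 1 at 1% O2, 2 without HIF1A siRNA replicate 3 and 4 in 7 of the other 10 fits that left out 1 array. In hypoxia the 3 calls fell to 1 without control siRNA replicate 2 at 1% O2 or any 1 normoxia array, and numbered 5 without HIF1A siRNA replicate 3.

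**Figure D4:**
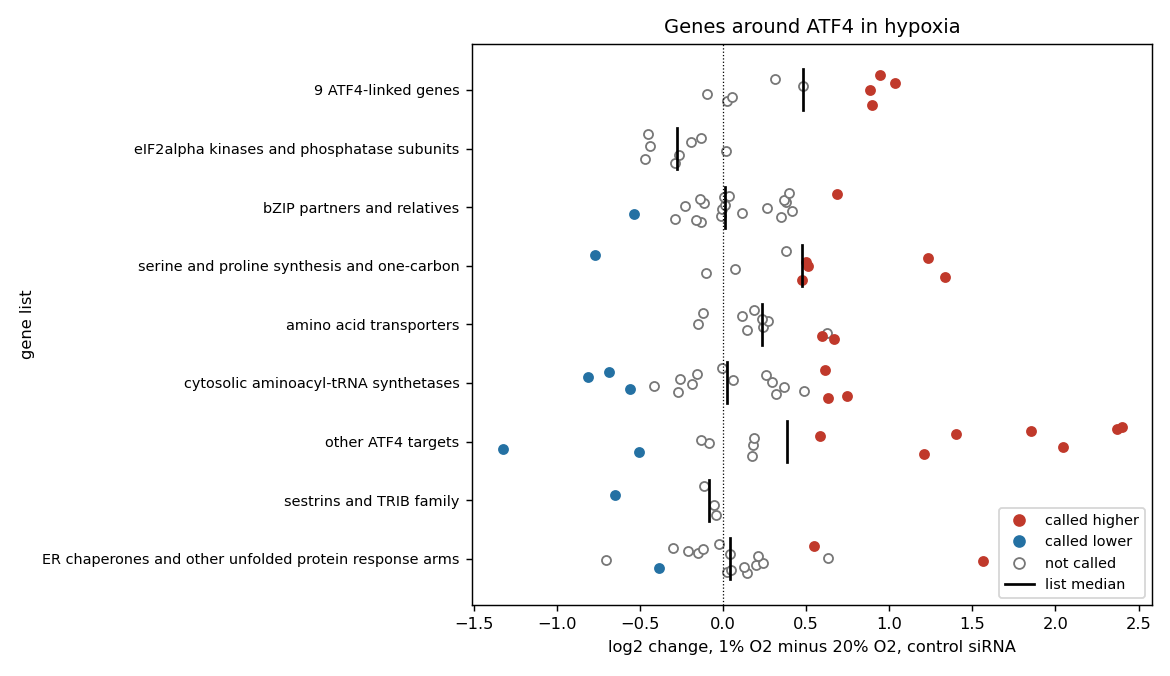
Log2 change in hypoxia over normoxia with control siRNA (horizontal axis) for the 9 ATF4-linked genes and 8 further lists (rows). Each point is a gene, filled red where called higher, filled blue where called lower and open where not called by limma, and the vertical bars are list medians. The median is 0.48 for the 9 genes, 0.47 for serine, proline and one-carbon enzymes, and -0.28 for the row of eIF2alpha kinases and phosphatase subunits. That row also holds EIF2S1, which is eIF2alpha itself, and IMPACT.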

How the data were processed

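The deposited values were log2 expression levels of 22011 probe sets on 12 arrays; per the submitters' processing notes the tool was Partek and the build hg18, while the sources used here do not give the background correction, normalization or summarization. Base 2 was inferred from the range of the values. They were used as deposited. The platform annotation gave a single symbol for 14432 probe sets, more than 1 for 2408, and none here for 5171. For the 197 genes with over 1 single-symbol probe set, the one with the highest mean was kept, leaving 14232 genes. Markers have their levels printed side by side, but probe sets differ in brightness, and no level is ranked or tested against that of another probe set.

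All 4 groups were fitted together in limma 3.58.1 (R 4.3.3, data.table, version 1.17.8) with empirical Bayes moderation, and p-values were adjusted by Benjamini-Hochberg over all 14232 genes. The threshold for a call was 0.05 on the adjusted p. The procedure was tested on simulated data. Figures and promoter searches used Python 3.11.15, pandas 2.3.3 and matplotlib 3.10.9.

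The text names the 9 genes, both siRNA targets, up to 3 genes of each further list with the largest change among those called in hypoxia, up to 2 among those called with each siRNA, and the 5 genes nearest to ASNS. Members and lists were chosen with earlier results of these data known. Alternatives were 3 further scalings, a replicate block, a fit of the 2 groups alone, moderation with a trend, a filter on low values, means over probe sets, and each of the 12 arrays left out.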

Additional observations from a re-analysis of the deposited data

How the results depend on the processing

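The log2 changes of the 9 genes were fitted again in 1080 repeats (54 changes under 20 alternatives). They kept their direction and their side of the threshold in 987 and changed sign in 38. They fell short of the threshold in 37 and passed it in 18. The replicate block, 2-group fit, trend moderation, low-value filter and probe-set means leave a log2 change of these genes as it was. So does leaving out an array of a group not compared. Such repeats could not change sign, and changes that stayed uncalled count as kept, so the count of 987 does not measure stability. No change of sign was called. Changes of sign under another scaling are given as quantile normalization, cyclic loess, then median centring where each applies. With HIF1A siRNA over control siRNA ASNS was at 0.093, 0.12 and 0.11, and CEBPB at 0.19, 0.17 and 0.025. With HIF1A siRNA over HIF2A siRNA ATF4 was at 0.086, 0.011 and 0.021, CHAC1 at 0.14, 0.038 and 0.071, and CEBPB at 0.21, 0.18 and 0.051, while SESN2 was at 0.079 and 0.025 after the first 2 and PCK2 at 0.016 after quantile normalization. After the first 2 scalings CEBPB was at 0.055 and 0.070 in hypoxia over normoxia, at 0.24 and 0.24 with HIF1A siRNA over normoxia, and at 0.036 and 0.054 with HIF2A siRNA over normoxia. Leaving out 1 array gave ranges that include 0 for ATF4 (-0.020 to 0.14) and ATF3 (-0.038 to 0.12) in hypoxia. They did so with HIF1A siRNA over control siRNA for ATF4 (-0.028 to 0.042), ASNS (-0.077 to 0.047) and SESN2 (-0.078 to 0.22). The others were CEBPB with HIF2A siRNA over control siRNA (-0.080 to 0.054), CHAC1 with HIF1A siRNA over HIF2A siRNA (-0.28 to 0.24) and ATF4 with HIF1A siRNA over normoxia (-0.0088 to 0.15).

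Between HIF1A siRNA and HIF2A siRNA the count of called members was 1 after each of the 3 scalings, 0 with only the 2 groups fitted and 0 to 3 with 1 array left out, against 2. With HIF1A siRNA over control siRNA it was 0 to 1 with 1 array left out. The TRIB3 share left with HIF1A siRNA was 99.9% after quantile normalization and 97.6% after cyclic loess. Over all genes the calls with 1 array left out numbered 806 to 2465 in hypoxia (1754 with all arrays), 390 to 2648 with HIF1A siRNA over control siRNA (1573), 268 to 2557 with HIF1A siRNA over HIF2A siRNA (1342), 2361 to 5042 with HIF1A siRNA over normoxia (4986) and 588 to 2021 with HIF2A siRNA over normoxia (1372). With only the 2 groups fitted they numbered 137, 127, 3250 and 2131 in the last 4 of these. HIF2A siRNA over control siRNA gave 4, 4 and 3 calls after the 3 scalings, against 1. The cause of these changes was not tested.

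Scaling also moved the split of higher and lower calls. In hypoxia 480 were higher and 1274 lower as deposited, against 946 and 1200 after quantile normalization and 1059 and 1289 after cyclic loess. With HIF1A siRNA over control siRNA the deposited split was 122 and 1451, against 726 and 1124, 545 and 1183, and 509 and 1272 after the 3 scalings. With HIF1A siRNA over HIF2A siRNA it was 128 and 1214, against 799 and 981, 530 and 1019, and 654 and 1086. With HIF1A siRNA over normoxia it was 664 and 4322, against 2241 and 2082, 1795 and 2216, and 2882 and 3306. With HIF2A siRNA over normoxia it was 405 and 967, against 768 and 903, and 855 and 985 after the first 2.

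A replicate block left the counts of called members at 4 in hypoxia, 0 with either siRNA over control siRNA, 2 between the siRNAs, and 5 with HIF1A siRNA and 6 with HIF2A siRNA over normoxia. With the block the hypoxia call of DNAJB9 ended (adjusted p = 0.0552), and with HIF1A siRNA over control siRNA 4 chaperone and unfolded protein response genes were lower, against 7. Deviations of the 18 same-numbered pairs of arrays correlated between -0.295 and 0.417, with 5 over 0.1, and 4 of the 12 arrays correlated best with an array of their own number, so the numbers were not taken as pairing the samples. The 3 arrays per group limit the precision, and signal over background is not given.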
